A study of Mus musculus with 16 samples.

Results

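The extracellular matrix genes *Fn1*, *Postn*, *Tnc*, *Sparc*, *Spp1*, *Vcan* and *Smoc2*, which encode fibronectin and 6 matricellular proteins, were followed across the 4 groups of mouse hearts. They were taken from the count table as a named list, by gene symbol, and all 7 were found among its 55573 genes. All 7 also passed the expression filter that left 16857 genes for testing. RNA came from the heart apex of 16 male WT mice, 4 in each group, which had received AAV9 on postnatal day 1 and were killed 4 weeks after surgery. The virus carried either GFP (AAV9-GFP) or full-length mouse *Cardinal*, a long noncoding RNA (AAV9-Cardinal), in both cases under the cardiomyocyte promoter cTnT. Each virus was combined with sham surgery or with TAC (transverse aortic constriction), a ligature around the aorta against which the left ventricle has to pump. Age at surgery is not given in the sources used here, and nothing states whether the mice of a group shared litters or surgery days. The apex is a mixture of cell types, so that fewer cells of a type and less RNA per cell cannot be told apart.

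Matricellular proteins are secreted into the matrix but signal to cells more than they bear load. Fibronectin is the adhesive glycoprotein of the provisional matrix, to which cells bind through integrins. In adult heart most of these genes are quiet or moderately expressed, and periostin in particular is a known marker of fibroblasts activated by injury or pressure overload. Tenascin C, osteopontin and versican are likewise known from remodeling hearts, whereas SPARC and SMOC2 belong to a family of calcium-binding proteins that act on collagen assembly and growth factor signaling.

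Between 16441997 and 21904589 reads were counted per mouse, with all but 1 mouse at 21525012 or more. Levels are given as CPM, counts per fixed library size after TMM scaling. At these depths 3 counts, the level taken as the limit of detection, corresponded to between 0.126 and 0.195 CPM, which covers counting error only. *Cardinal* itself (*Gm12295*) was counted at 3.42 to 5.93 CPM in AAV9-GFP sham, 3.59 to 7.24 in AAV9-GFP TAC, 26.2 to 40.0 in AAV9-Cardinal sham and 18.3 to 93.9 CPM in AAV9-Cardinal TAC hearts. The value of 93.9 CPM was that of AAV9-Cardinal TAC replicate 1. This mouse stood apart in several of the genes described here, and results that rest on it are given with and without it. The tests were edgeR's quasi-likelihood F test on all 16 mice, with Benjamini-Hochberg adjustment over all 16857 genes and genes under 0.05 after adjustment were called. Groups were also compared by an exact two-sided permutation test of CPM in 4 mice against 4, whose smallest possible p, 0.029, is reached where the groups do not overlap.

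In AAV9-GFP hearts, TAC raised 6 of the 7 genes, *Tnc*, *Postn*, *Vcan*, *Sparc*, *Fn1* and *Smoc2*, and the levels of these 6 did not overlap between sham and TAC mice. Of all tested genes, 17.4% were called there and 20.3% did not overlap. In AAV9-Cardinal hearts, TAC raised 4 of the 7, *Tnc*, *Vcan*, *Postn* and *Sparc*, where 6.48% of all tested genes were called and 13.7% did not overlap. *Spp1* was near the limit of detection in all groups and was called in none of the comparisons. The plot of CPM in each mouse shows all values.

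**Figure D1:**
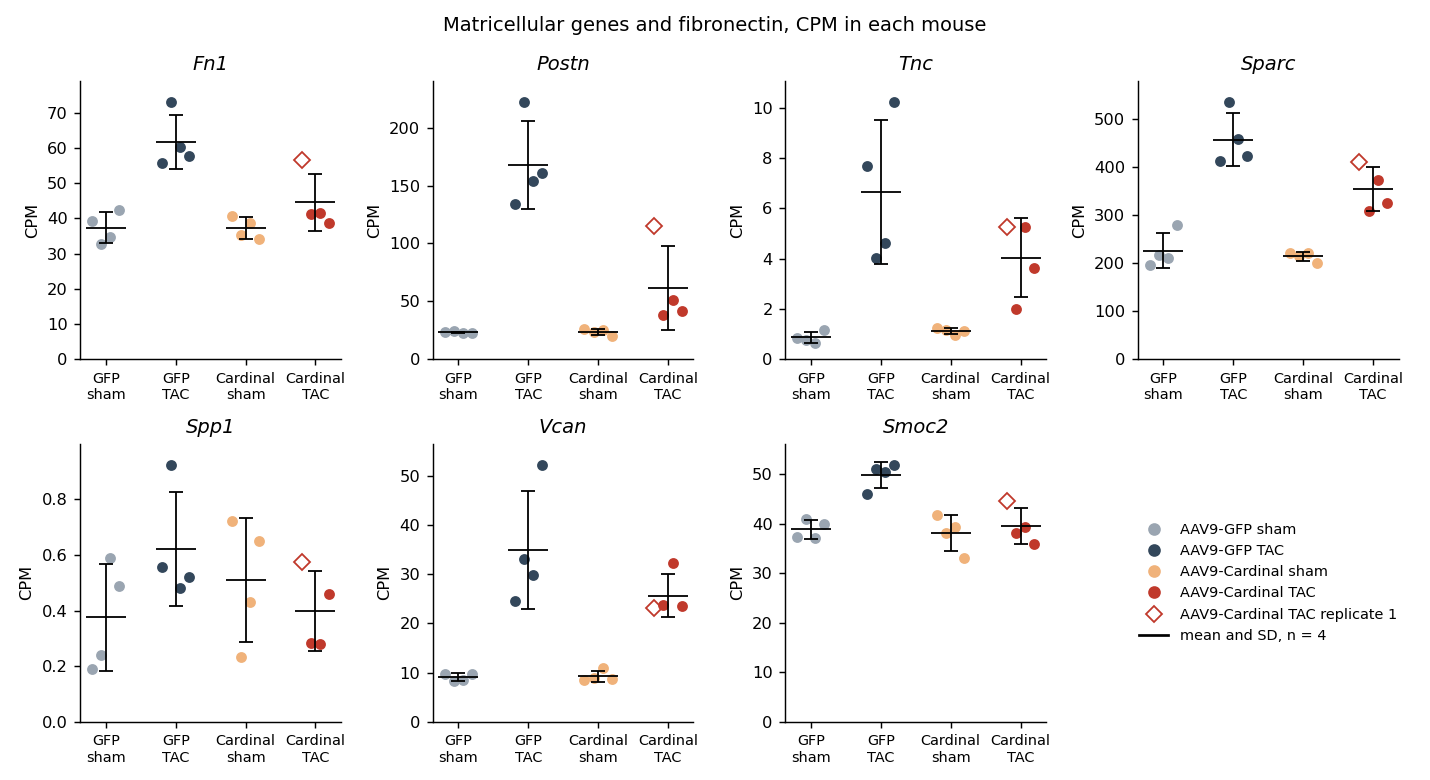
CPM of the 7 genes (vertical axes, each starting at 0) in each mouse of the 4 groups, with the group mean and SD (n = 4) in black and AAV9-Cardinal TAC replicate 1 as an open diamond. In AAV9-GFP hearts the TAC mice lie above every sham mouse for all genes but *Spp1*, and the diamond is the highest AAV9-Cardinal TAC mouse for 6 of the 7 genes.

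*Postn* encodes periostin and spans bases 54361109 to 54391037 of chromosome 3 (plus strand, GRCm38) (ENSMUSG00000027750). It had 23.5, 23.9, 22.4 and 22.3 CPM in the AAV9-GFP sham mice and at 134, 222, 154 and 161 CPM in the AAV9-GFP TAC mice. It was thus nearly constant in sham hearts and high in every TAC heart. The mean rose from 23.0 ± 0.768 to 168 ± 37.9 CPM (SD, n = 4), a log2 fold change of 2.86 (SE, the standard error, 0.29; edgeR adjusted p = 2.0e-05). AAV9-Cardinal sham mice had 26.0, 23.4, 25.2 and 20.1 CPM, and AAV9-Cardinal TAC mice had 115 CPM in replicate 1 and 38.2, 51.2 and 41.5 CPM in the others. The latter 3 TAC hearts formed a low group well under the AAV9-GFP TAC hearts, and replicate 1 lay between, still under the lowest AAV9-GFP TAC heart at 134 CPM. *Postn* rose with TAC in AAV9-Cardinal hearts by a log2 fold change of 1.37 (SE 0.28, edgeR adjusted p = 0.011). Without replicate 1 that value was 0.88 (edgeR adjusted p = 0.0049).

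*Tnc* encodes tenascin C, an oligomeric glycoprotein that loosens the adhesion of cells to fibronectin, and lies on chromosome 4 from 63959785 to 64047015 on the minus strand (ENSMUSG00000028364). Its CPM was 0.851, 0.768, 0.637 and 1.17 in AAV9-GFP sham mice and 7.67, 4.03, 4.64 and 10.2 in AAV9-GFP TAC mice. The gene was low in sham hearts, with 13 to 24 counts per mouse, and well detected in all TAC hearts, with 96 to 235 counts. The log2 fold change was 2.94 (SE 0.36, edgeR adjusted p = 7.8e-05), the largest of the 7 genes, with group means of 0.857 ± 0.228 and 6.64 ± 2.87 CPM (SD, n = 4). In AAV9-Cardinal hearts *Tnc* was at 1.22, 1.16, 0.961 and 1.10 CPM after sham surgery and at 5.27, 1.97, 5.26 and 3.64 CPM after TAC. All 4 TAC hearts lay above all 4 sham hearts, but they overlapped with the AAV9-GFP TAC hearts. The log2 fold change was 1.85 (SE 0.35, edgeR adjusted p = 0.0081).

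*Vcan* encodes versican, a large hyaluronan-binding proteoglycan of the provisional matrix, and lies on chromosome 13 from 89655312 to 89742509 on the minus strand (ENSMUSG00000021614). AAV9-GFP sham mice had 9.79, 8.31, 8.57 and 9.78 CPM, and AAV9-GFP TAC mice had 24.6, 33.1, 29.7 and 52.1 CPM. The lowest TAC heart was well above the highest sham heart, with the TAC hearts themselves widely spread. The log2 fold change was 1.94 (SE 0.19, edgeR adjusted p = 1.9e-05). AAV9-Cardinal sham mice had 8.49, 8.83, 10.9 and 8.76 CPM, and AAV9-Cardinal TAC mice had 23.1, 23.7, 32.2 and 23.4 CPM. In all, 3 of the AAV9-Cardinal TAC hearts, replicate 1 among them at 23.1 CPM, were below the lowest AAV9-GFP TAC heart, and the other fell inside the AAV9-GFP TAC range. The rise with TAC was 1.47 on the log2 scale (SE 0.19, edgeR adjusted p = 0.0011), and *Vcan* was the member for which replicate 1 was lowest rather than highest.

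The stretches before the start sites of *Postn*, *Tnc* and *Vcan* are shown because these genes had the largest rises with TAC under both viruses. RefSeq promoter windows on GRCm38.p6 matched 5 of the 7 genes. *Fn1* and *Smoc2* had none, and the window of *Sparc* lies over its own annotated exons. Each sequence is the 250 bases before a RefSeq start, 5′ to 3′ on the strand of the gene. Capitals mark a TATA box (TATAAA) or a GC box (GGGCGG), searched on both strands.
Postn, chr3:54360857-54361106, plus strand: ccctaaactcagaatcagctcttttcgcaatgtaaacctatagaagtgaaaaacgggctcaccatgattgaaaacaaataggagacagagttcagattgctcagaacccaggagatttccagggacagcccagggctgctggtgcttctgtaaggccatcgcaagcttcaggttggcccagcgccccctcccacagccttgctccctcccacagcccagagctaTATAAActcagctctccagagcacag
Tnc, chr4:64047016-64047265, minus strand: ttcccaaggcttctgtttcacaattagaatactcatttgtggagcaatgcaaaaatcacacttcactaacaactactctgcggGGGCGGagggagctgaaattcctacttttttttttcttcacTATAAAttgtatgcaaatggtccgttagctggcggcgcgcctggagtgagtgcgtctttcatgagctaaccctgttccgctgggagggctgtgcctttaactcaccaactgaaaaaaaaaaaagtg
Vcan, chr13:89742513-89742762, minus strand: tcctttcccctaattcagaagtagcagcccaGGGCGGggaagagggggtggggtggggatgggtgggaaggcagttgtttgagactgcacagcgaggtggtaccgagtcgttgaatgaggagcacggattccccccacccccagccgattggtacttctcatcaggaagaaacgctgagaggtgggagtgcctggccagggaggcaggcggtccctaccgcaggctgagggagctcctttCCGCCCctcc
The *Postn* window shown held a TATA box from 26 to 21 bases before the start and no GC box. *Postn* has another RefSeq start, not shown, whose window (chr3:54359017-54359266) held none of the motifs searched. The *Tnc* window held a TATA box from 126 to 121 bases and a GC box from 167 to 162 bases before this start, the first of its annotated starts. The *Vcan* window held no TATA box and GC boxes at 219 to 214 bases and, on the opposite strand, at 10 to 5 bases before the start. Of all 32817 RefSeq windows of the same length, 12.4% held a TATA box and 32.7% a GC box. The AP-1 site TGANTCA (6.75% of windows), the TEAD site GGAATG (12.6%) and the CArG box (1.47%) were in none of these 3 windows. The NFAT core GGAAA (55.6% of windows) was in those of *Postn* and *Vcan* and not in the *Tnc* window shown. *Tnc* has another RefSeq start, not shown, whose window (chr4:64046937-64047186) overlaps the one shown. That window held an NFAT core from 79 to 75 bases before its start. These are matches of letters and no evidence of binding.

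*Sparc*, also called osteonectin, encodes a collagen-binding protein that takes part in the assembly of collagen fibrils. It lies on chromosome 11 from 55394500 to 55423183 on the minus strand (ENSMUSG00000018593). It was the most abundant of the 7 genes, at 195, 216, 211 and 279 CPM in AAV9-GFP sham mice and at 413, 534, 458 and 422 CPM in AAV9-GFP TAC mice. Every TAC heart lay above every sham heart, and replicate 4 was the highest of the sham hearts. The log2 fold change was 1.02 (SE 0.11, edgeR adjusted p = 4.4e-05). AAV9-Cardinal hearts had 221, 214, 220.0 and 200.0 CPM after sham surgery and 409, 308, 372 and 324 CPM after TAC. The rise with TAC was 0.72 on the log2 scale (SE 0.11, edgeR adjusted p = 0.0031). Even replicate 1, the highest at 409 CPM, was marginally below the lowest AAV9-GFP TAC heart at 413 CPM.

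*Fn1* encodes fibronectin and lies on chromosome 1 from 71585520 to 71653200 on the minus strand (ENSMUSG00000026193). AAV9-GFP sham mice had 39.3, 32.7, 34.7 and 42.4 CPM, and AAV9-GFP TAC mice had 55.8, 73.0, 60.3 and 57.6 CPM. The groups were apart, and the log2 fold change was 0.73 (SE 0.12, edgeR adjusted p = 8.5e-04). AAV9-Cardinal mice had 40.8, 35.3, 38.6 and 34.3 CPM after sham surgery and 56.6, 41.3, 41.5 and 38.8 CPM after TAC. Among the AAV9-Cardinal TAC hearts, replicate 1 had a level found in AAV9-GFP TAC hearts, while the other 3 stayed within or close to the sham range. *Fn1* was not called for TAC in AAV9-Cardinal hearts, at 0.26 on the log2 scale (SE 0.12, edgeR adjusted p = 0.23, exact permutation p = 0.057). Without replicate 1 that value was 0.12 (edgeR adjusted p = 0.52).

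*Smoc2* encodes a secreted modular calcium-binding protein of the SPARC family and lies on chromosome 17 from 14279506 to 14404790 on the plus strand (ENSMUSG00000023886). It had 45.9, 51.0, 50.4 and 51.8 CPM in AAV9-GFP TAC mice against 37.2, 41.0, 37.1 and 39.8 CPM in AAV9-GFP sham mice. The log2 fold change of 0.36 (SE 0.075, edgeR adjusted p = 0.0042) was small but separated the groups fully. AAV9-Cardinal mice had 41.7, 38.2, 39.2 and 33.1 CPM after sham surgery and 44.6, 38.2, 39.3 and 35.9 CPM after TAC. These groups overlapped almost fully, and the log2 fold change was 0.053 with a 95% interval from -0.11 to 0.21 (edgeR adjusted p = 0.76). Without replicate 1 the estimate changed sign, to -0.0077.

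*Spp1* encodes osteopontin, a phosphoprotein that macrophages and other cells secrete after injury, and lies on chromosome 5 from 104435118 to 104441050 on the plus strand (ENSMUSG00000029304). It had between 4 and 22 counts in a mouse. Its mean was 0.377 ± 0.192 CPM in AAV9-GFP sham, 0.621 ± 0.204 in AAV9-GFP TAC, 0.509 ± 0.222 in AAV9-Cardinal sham and 0.399 ± 0.145 CPM in AAV9-Cardinal TAC hearts (SD, n = 4 each). The groups overlapped in every comparison. With AAV9-GFP the 95% interval of the log2 fold change with TAC ran from -0.12 to 1.57, and with AAV9-Cardinal from -1.20 to 0.55, so that a change of the size seen for *Fn1* was not detectable at this depth. In addition, 11.6% of the 50-base stretches of *Spp1* transcripts occur in another annotated gene, mostly *Gm42793* on the same strand, which had at most 1 count in any mouse.

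Read against all genes, 17.4% of those tested were called in AAV9-GFP TAC hearts, 8.49% as higher, and 20.3% did not overlap between sham and TAC, next to 6 of 7 members for each. In AAV9-Cardinal hearts 6.48% of genes were called with TAC, 3.1% as higher, and 13.7% did not overlap, next to 4 of 7 members. Without replicate 1, 8.41% of genes were called and the members called were again 4. The median log2 fold change of the 7 members was 1.02 in AAV9-GFP and 0.72 in AAV9-Cardinal hearts, and that of all tested genes was 0.0050 and -4.7e-04. Each virus was compared with its own sham mice, so the groups compared share no mice. The edgeR tests are still not independent, because the fit of all mice gave both comparisons a shared estimate of the spread. The edgeR adjusted p of *Postn* with TAC in AAV9-GFP hearts went from 2.0e-05 to 2.0e-08 without AAV9-Cardinal TAC replicate 1.

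**Figure D2:**
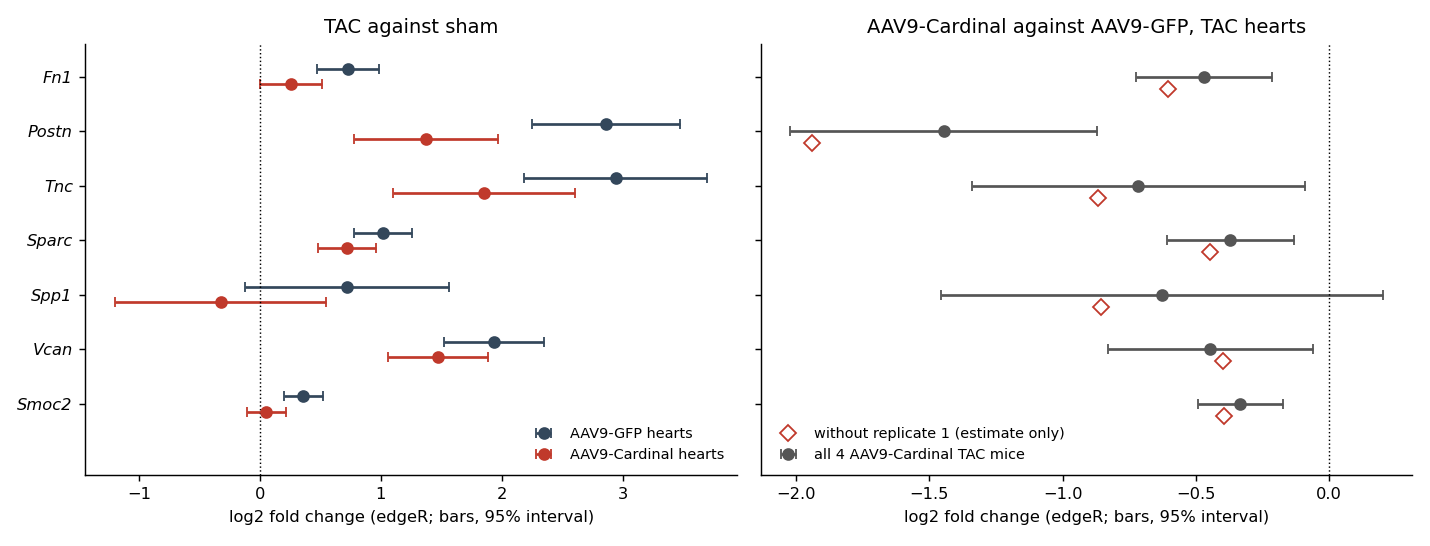
Log2 fold changes from edgeR with 95% intervals (horizontal axes) for the 7 genes. The left panel shows TAC against sham for AAV9-GFP (dark) and AAV9-Cardinal hearts (red), and the right panel AAV9-Cardinal against AAV9-GFP among TAC hearts with all mice (grey) and the estimate without replicate 1 (open diamonds). All 7 estimates in the right panel are below 0, and without replicate 1 that of *Postn* moves from -1.45 to -1.94.

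Among TAC hearts, all 7 genes had lower means with AAV9-Cardinal than with AAV9-GFP, but none was called when all mice were kept. *Postn*, *Sparc* and *Smoc2* did not overlap between the viruses. *Postn* differed most, at 61.5 ± 36.1 against 168 ± 37.9 CPM (SD, n = 4), a log2 fold change of -1.45 (SE 0.27, edgeR adjusted p = 0.0503), just outside the threshold. *Smoc2* was at 39.5 ± 3.70 against 49.8 ± 2.66 CPM (log2 fold change -0.33, SE 0.075, edgeR adjusted p = 0.076). *Fn1* followed at 44.5 ± 8.16 against 61.7 ± 7.75 CPM (log2 fold change -0.47, SE 0.12, edgeR adjusted p = 0.098). The 95% intervals of *Tnc* (from -1.34 to -0.088), *Sparc* (from -0.61 to -0.13) and *Vcan* (from -0.83 to -0.061) also lay below 0 before adjustment, with adjusted p of 0.27, 0.14 and 0.26. Of all tested genes 0.101% were called in this comparison and 6.77% did not overlap. The median log2 fold change of the members was -0.47 and that of all tested genes -0.0065.

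Without AAV9-Cardinal TAC replicate 1, 3 of the 7 genes were called as lower with AAV9-Cardinal after TAC, where 3.13% of all genes were called. They were *Postn* (log2 fold change -1.94, edgeR adjusted p = 2.0e-05), *Fn1* (-0.60, adjusted p = 0.0090) and *Smoc2* (-0.39, adjusted p = 0.013). *Sparc* then stood at -0.45 with an adjusted p of 0.052. With all mice, DESeq2 called 4 of the 7, *Postn*, *Smoc2*, *Fn1* and *Sparc*, with adjusted p between 4.4e-04 and 0.045, and 2.4% of all tested genes. *Postn*, so close to the threshold, was also called without AAV9-GFP TAC replicate 1 or replicate 4, with the filter of at least 1 CPM in 4 mice, without mitochondrial genes and with a GC offset. In all, it was called in 3 of 16 fits that each left out 1 mouse, with adjusted p up to 0.22. It was called in 4 of 9 other settings, DESeq2 among them, with adjusted p up to 0.41. All 7 estimates were below 0 in every setting tried, except that *Spp1* had no value under the 1 CPM filter.

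Among sham hearts none of the 7 genes was called by edgeR or had an unadjusted p under 0.05, and all overlapped, where 0.0119% of all genes were called and 2.36% did not overlap. DESeq2 likewise called 0. The 95% interval of the log2 difference was narrowest for *Smoc2* (from -0.19 to 0.13) and wide for *Tnc* (from -0.53 to 1.28), so that for the low genes a difference of 2-fold was not excluded. The difference between the TAC responses, AAV9-Cardinal minus AAV9-GFP, was below 0 for all 7 genes. It was called for none of them. The lowest adjusted p were those of *Postn* (-1.49, SE 0.39, edgeR adjusted p = 0.30), *Smoc2* (-0.31, SE 0.11, adjusted p = 0.36) and *Fn1* (-0.47, SE 0.17, adjusted p = 0.38). Here 0.0119% of all genes were called, and without replicate 1 the share was 0.463%. In that fit *Postn* was called, at -1.99 (edgeR adjusted p = 0.0010).

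AAV9-Cardinal TAC replicate 1 was the highest of its group for 6 of the 7 genes. It exceeded the mean of the other 3 mice 2.63-fold for *Postn*, 1.69-fold for *Spp1*, 1.45-fold for *Tnc*, 1.40-fold for *Fn1*, 1.22-fold for *Sparc* and 1.18-fold for *Smoc2*, and was at 0.874 of it for *Vcan*. For *Fn1*, *Tnc* and *Spp1* it lay within the range of the AAV9-GFP TAC mice, and for the other 4 genes below it. AAV9-Cardinal sham replicate 1 was also the highest of its group for 6 genes, but by less, with an average deviation from the group mean over the 7 genes of 0.14 on the log2 scale against 0.38 for the TAC mouse. In the same TAC mouse, summed fibroblast markers were at 701 CPM (546 to 701 in its group), macrophage markers at 247 CPM (176 to 247) and cardiomyocyte markers at 29914 CPM (29914 to 32472). The part of these cell type markers, or of its high *Cardinal* level, in the matricellular values was not tested.

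Compared per kilobase of exon, the levels of the 7 genes spanned more than 2 orders of magnitude, and TAC changed their order. The length used joins the exons of all annotated transcripts, 17 for *Fn1*, 9 for *Postn* and 7 for *Smoc2*. The length of the transcripts expressed here is not known, so the order between genes depends on this choice. In AAV9-GFP sham hearts the order was *Sparc* (59.4 ± 9.70 CPM per kb, SD, n = 4), *Smoc2* (5.58), *Fn1* (3.19), *Postn* (2.64), *Vcan* (0.630), *Spp1* (0.228) and *Tnc* (0.110), with only the last pair overlapping between mice. In AAV9-GFP TAC hearts *Postn* moved from the fourth to the second place at 19.3 ± 4.36 CPM per kb, above *Smoc2* (7.16) and *Fn1* (5.28) in every mouse, and *Tnc* (0.854) passed *Spp1* (0.377) in its mean but still overlapped with it. In AAV9-Cardinal sham hearts the order was that of AAV9-GFP sham hearts, with *Fn1* (3.19) and *Postn* (2.72) overlapping. In AAV9-Cardinal TAC hearts *Postn* was second in its mean (7.06 ± 4.14 CPM per kb) but overlapped with *Smoc2* (5.68), and replicate 1 held the highest *Postn* value.

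**Figure D3:**
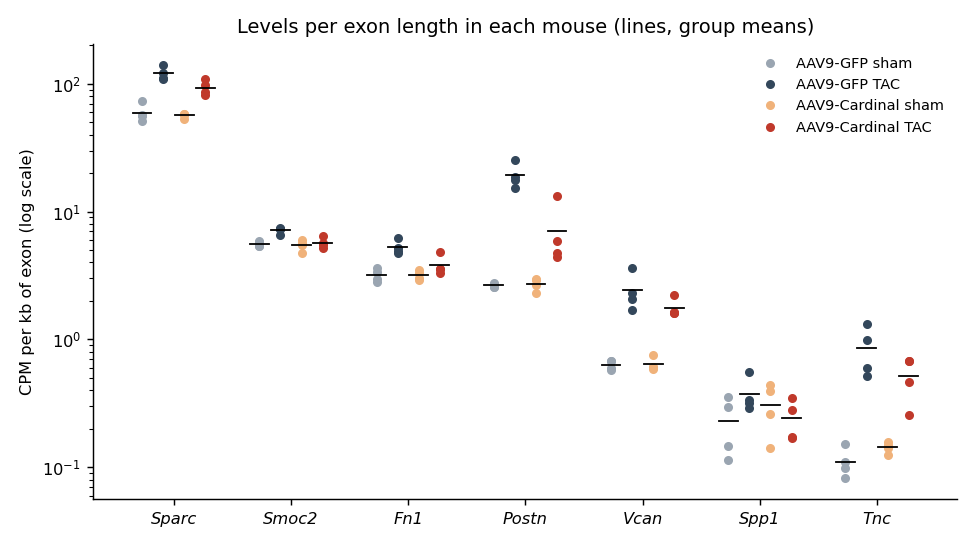
CPM per kb of annotated exon (vertical axis, log scale) for the 7 genes in each mouse, with lines at the group means. *Sparc* is highest in all 4 groups, and *Postn* passes *Smoc2* and *Fn1* in the AAV9-GFP TAC mice, from 2.64 to 19.3 CPM per kb in the mean.

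After the group means were removed, the 7 genes did not vary as one block across the 16 mice. The log2 CPM of *Fn1* and *Postn* varied together (Pearson r = 0.81 over 16 mice, 0.62 over 15 without AAV9-Cardinal TAC replicate 1), as did *Fn1* and *Sparc* (0.75 and 0.69) and *Postn* and *Smoc2* (0.73 and 0.61). *Vcan* had lower values, with r of 0.043 with *Fn1* (0.20 without that mouse), 0.044 with *Postn* (0.38), 0.23 with *Smoc2* (0.38) and 0.39 with *Tnc* (0.47). *Tnc* and *Fn1* had r of 0.12, and -0.15 without that mouse. These are descriptions over mice that share library and scaling, with no test. Among 14274 genes averaging 1 CPM or more, those closest to *Postn* were *Col14a1* (r = 0.93), *Col5a2* (0.93) and *Anxa7* (0.93), which fell to 0.72, 0.71 and 0.74 without replicate 1. Closest to *Fn1* were *Dkk3* (0.86), *Adgre1* (0.84) and *Colec11* (0.83), which fell to 0.73, 0.75 and 0.68 without replicate 1. For both genes these were then no longer the closest, with ranks between 26 and 104. Closest to *Sparc* were *Pea15a* (0.87), *Map1b* (0.87) and *Myo1e* (0.84), at ranks 8, 10 and 11 without replicate 1. Closest to *Vcan* were *Alox5ap* (0.90), *Cd163* (0.89) and *Purb* (0.87), and closest to *Smoc2* were *Pcsk6* (0.90), *Gm527* (0.89) and *Itih5* (0.87). For *Tnc* they were *Arhgap44* (0.88), *4930579G24Rik* (0.82) and *Exoc6b* (0.82), and for the sparsely counted *Spp1* they were *Rbm4* (0.87), *Uchl1* (0.85) and *Cacnb3* (0.84). The genes closest to *Vcan*, *Smoc2*, *Tnc* and *Spp1* had ranks between 1 and 10 without replicate 1. All genes named as closest were picked for the highest r among 14274 genes, a choice that by itself gives high values.

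Of 20 other matricellular genes, 16 were tested. Their counts are to be read against all tested genes, of which 8.49% were called higher with TAC in AAV9-GFP and 3.1% in AAV9-Cardinal hearts. In AAV9-GFP hearts 5 were higher with TAC and none lower (median log2 fold change 0.28). *Ccn5*, a growth-inhibitory CCN protein, rose from 3.71 ± 0.978 to 12.5 ± 5.78 CPM (edgeR adjusted p = 0.022). *Fstl1*, a secreted SPARC-family glycoprotein, rose from 49.4 ± 1.08 to 130 ± 11.7 CPM (adjusted p = 9.3e-07). *Ccn2*, the connective tissue growth factor, rose from 59.8 ± 20.8 to 152 ± 40.3 CPM (adjusted p = 0.0024). In AAV9-Cardinal hearts 3 were higher and none lower (median 0.11), namely *Ccn2* (log2 fold change 1.24, adjusted p = 0.014), *Fstl1* (0.82, adjusted p = 5.2e-04) and *Mgp*, the matrix Gla protein (0.63, adjusted p = 0.0041). *Mgp* was called in AAV9-GFP hearts too, at 0.76 (adjusted p = 1.6e-04). The call of *Ccn5* was kept in 13 of 16 fits that each left out 1 mouse, and that of *Ccn2* in AAV9-Cardinal hearts in 15. *Fstl1* was also the gene of this list that was called between the viruses in TAC hearts, at 87.7 ± 14.6 against 130 ± 11.7 CPM (SD, n = 4, log2 fold change -0.56, edgeR adjusted p = 0.039). That call was kept in 4 of 16 fits that each left out 1 mouse, with adjusted p from 2.7e-04 to 0.17.

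Of 14 receptor genes for these proteins, all tested, 5 were higher with TAC in AAV9-GFP hearts and 3 in AAV9-Cardinal hearts, with none lower (medians 0.23 and 0.15). For this list and the hyalectan list below, 8.49% and 3.1% of all tested genes were called higher in AAV9-GFP and AAV9-Cardinal hearts. *Cd44*, the receptor of hyaluronan and osteopontin, rose in both, by 1.32 (edgeR adjusted p = 9.9e-04) and 1.34 (adjusted p = 0.0044) on the log2 scale. *Itga9*, an integrin subunit that binds tenascin C and osteopontin, rose by 0.96 (adjusted p = 1.9e-05) and 0.59 (adjusted p = 0.0041). *Itga5*, the fibronectin receptor subunit, also rose in both, by 0.77 (adjusted p = 0.0045) and 0.67 (adjusted p = 0.027), and *Itgb3* rose in AAV9-GFP hearts by 0.91 (adjusted p = 0.036). Over the fits that left out 1 mouse, the call of *Itga5* in AAV9-Cardinal hearts was kept in 12 of 16 and that of *Itgb3* in 10 of 16. None of the 14 was called between the viruses in either surgery group by edgeR. Of 14 hyalectan and hyaluronan genes 7 were tested. None was called in AAV9-GFP hearts and 1 in AAV9-Cardinal hearts (medians 0.40 and 0.37), where *Adamts1*, a protease that cleaves versican, rose from 44.4 ± 14.4 to 82.2 ± 21.3 CPM (edgeR adjusted p = 0.044). That call was kept in 5 of 16 fits with 1 mouse left out and in 6 of 9 other settings, with adjusted p up to 0.28. In AAV9-GFP hearts *Adamts1* went from 50.0 ± 17.0 to 66.7 ± 5.69 CPM, not called (log2 fold change 0.42, edgeR adjusted p = 0.28). The difference between the 2 responses was 0.48 and not called either (edgeR adjusted p = 0.67).

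Some markers of the cell types in the apex changed with TAC, and their counts are to be read against the 17.4% of all genes called in AAV9-GFP and the 6.48% in AAV9-Cardinal hearts. Of 8 fibroblast markers 3 rose in AAV9-GFP hearts, *Lum* (log2 fold change 0.74), *Vim* (0.67) and *Pdgfrb* (0.55), and 1 in AAV9-Cardinal hearts, *Vim* (0.45, edgeR adjusted p = 0.016). The 5 not called in AAV9-GFP hearts ran from -0.17 for *Dpt* to 0.36 for *Tcf21*, with *Pdgfra* at 0.18 and *Dcn* at 0.055. Their summed level was 563 to 615 CPM in AAV9-GFP sham, 644 to 774 in AAV9-GFP TAC, 522 to 601 in AAV9-Cardinal sham and 546 to 701 CPM in AAV9-Cardinal TAC hearts. Of the 7 tested of 8 markers of activated fibroblasts, 4 rose in AAV9-GFP hearts and 3 in AAV9-Cardinal hearts. *Cilp* rose by 3.62 and 2.03, *Ltbp2* by 3.27 and 1.83 and *Mfap4* by 2.38 and 1.13 on the log2 scale in AAV9-GFP and AAV9-Cardinal hearts. *Meox1* was called in AAV9-GFP hearts only (1.75, and 0.77 in AAV9-Cardinal hearts). The tested markers called in neither were *Comp* (1.52 and 1.15), *Fap* (0.066 and 0.080) and *Acta2* (-0.69 and -0.099). Without AAV9-Cardinal TAC replicate 1, the AAV9-Cardinal values were 1.41 for *Cilp*, 1.19 for *Ltbp2* and 0.93 for *Mfap4*, the last no longer called (adjusted p = 0.061). Over the fits with 1 mouse left out, *Ltbp2* was called there in 13 of 16 and *Mfap4* in 11 of 16. The sum of these markers ranged from 54.3 to 238 CPM in AAV9-GFP sham, 119 to 191 in AAV9-GFP TAC, 58.1 to 78.5 in AAV9-Cardinal sham and 76.9 to 120 CPM in AAV9-Cardinal TAC hearts. The highest sham value was that of AAV9-GFP sham replicate 4, in which *Acta2*, also a smooth muscle gene, was at 219 CPM, with 38.4 to 62.7 CPM in the other 15 mice. Without *Acta2*, a choice made after its values were seen, the sum was 14.6 to 19.5, 62.4 to 134, 14.9 to 22.5 and 29.1 to 59.5 CPM in the same order of groups.

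**Figure D4:**
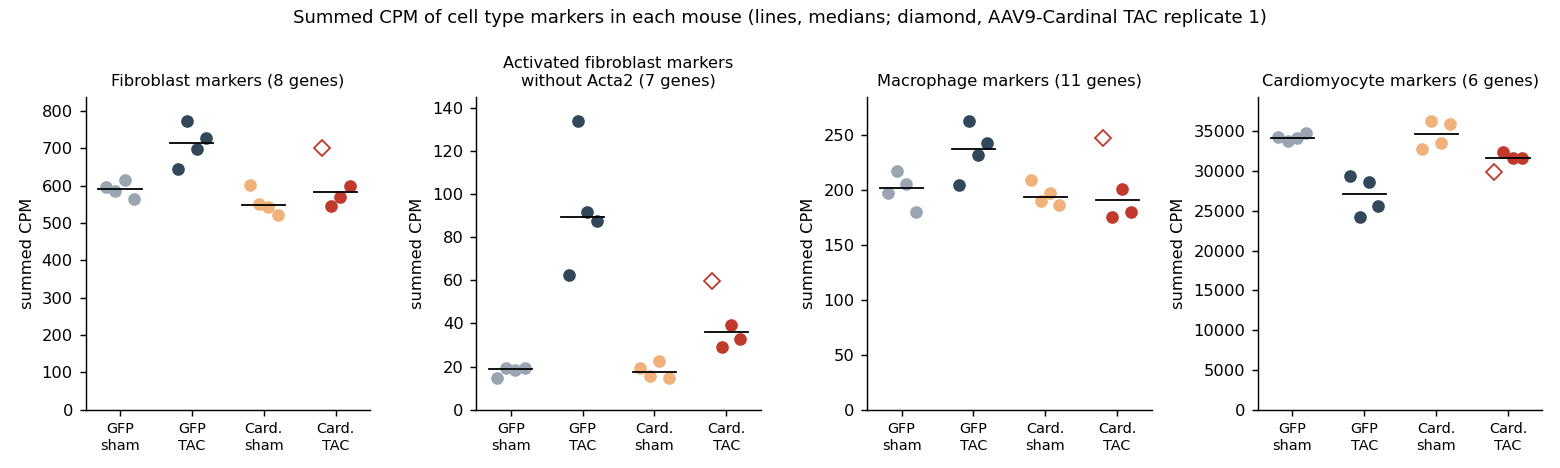
Summed CPM of marker genes (vertical axes from 0) in each mouse, with lines at the group medians and AAV9-Cardinal TAC replicate 1 as a diamond. The activated fibroblast sum without *Acta2* was 62.4 to 134 CPM in AAV9-GFP TAC and 29.1 to 59.5 CPM in AAV9-Cardinal TAC mice, and the cardiomyocyte sum was lowest in AAV9-GFP TAC mice.

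Of 11 macrophage markers 2, a share near that of all genes, rose in AAV9-GFP hearts, *Fcgr1* (0.60, called in 14 of 16 fits with 1 mouse left out) and *C1qb* (0.24, called in 11 of 16), and 0 were called by edgeR in AAV9-Cardinal hearts. Their sum was 180.0 to 217 CPM in AAV9-GFP sham, 205 to 263 in AAV9-GFP TAC, 187 to 210 in AAV9-Cardinal sham and 176 to 247 CPM in AAV9-Cardinal TAC hearts. Of 6 cardiomyocyte markers 5 fell in AAV9-GFP TAC hearts, *Tnni3* (-0.53), *Pln* (-0.50) and *Tnnt2* (-0.39) most. The remaining marker, *Actn2*, was not called there, at 0.20 (edgeR adjusted p = 0.077). In AAV9-Cardinal hearts *Pln* fell (-0.29) and *Actn2* rose (0.26). The difference between the 2 *Actn2* responses was 0.064 and not called (edgeR adjusted p = 0.88). The *Actn2* call in AAV9-Cardinal hearts was kept in 6 of 16 fits with 1 mouse left out and in 6 of 9 other settings. Values there went down to 0.11 and adjusted p up to 0.56. The sum of the cardiomyocyte markers was 33823 to 34861 CPM in AAV9-GFP sham, 24215 to 29389 in AAV9-GFP TAC, 32732 to 36346 in AAV9-Cardinal sham and 29914 to 32472 CPM in AAV9-Cardinal TAC hearts. Of 6 smooth muscle and pericyte markers *Cnn1* rose (1.18, called in 11 of 16 fits with 1 mouse left out) and *Abcc9* fell (-0.67) in AAV9-GFP hearts, and *Abcc9* fell (-0.47) in AAV9-Cardinal hearts. Their sum was 763 to 813 CPM in AAV9-GFP TAC and 738 to 830 CPM in AAV9-Cardinal TAC against 878 to 957 CPM over both sham groups. From sham to TAC, mean *Abcc9* went from 364 to 229 CPM with AAV9-GFP and from 373 to 270 CPM with AAV9-Cardinal. *Rgs5*, the most abundant of the list, went from 496 to 500 and from 470 to 481 CPM. No gene of the list but *Abcc9* was called lower. Of 6 endothelial markers *Cdh5* rose (0.25) in AAV9-GFP hearts, again near the share of all genes, and the sum ranged from 401 to 562 CPM over all mice. Of 4 epicardial markers 3 were tested and 0 called in either, with a sum of 3.81 to 11.3 CPM over all mice. No marker gene was at 0 in all mice. The part of cell composition in the changes of the matricellular genes was not tested.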

How the data were processed

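The deposited table holds the authors' raw counts of reads for each Ensembl gene, without normalization, in the heart apex of 16 mice (poly(A)-selected RNA, single-end reads of 50 bases). The submitters' processing notes name HISAT2 2.1.0, FastQC, edgeR 3.26.1 and GRCm38. The counting program, annotation, use of strand and treatment of reads with several matches are not given in the sources used here. Genes were named with GENCODE M21 (55394 of 55573). Groups came from the sample titles. Counts were analysed with edgeR 4.0.16 in R 4.3.3 (TMM, expression filter on the 4 groups, quasi-likelihood fit of all 16 mice, contrasts), with CPM from TMM-scaled libraries (log2 CPM with a prior count of 2) and levels between genes per kb of exon union. Standard errors came from the F statistic.

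The members and the gene lists were chosen with earlier results of these data known. Named genes were the 7 members, up to 3 called genes per list and comparison with the largest change and at least 1 CPM in the higher group, the 3 genes closest to each member, *Gm12295*, and genes that overlap a member. *Acta2* and further genes of the lists, among them genes not called, were added after their values were seen. Of the overlapping genes, *Apol7d* (opposite *Fn1*) had 0 counts and *8030451A03Rik* (opposite *Tnc*) at most 3 in any mouse. Chi-square per degree of freedom between mice of a group was 5.46 to 16.4, so all were kept as separate samples. The edgeR and DESeq2 p-values set group differences against the spread between these mice, whose litters and surgery days are not known. The exact permutation p sets a difference against those of the other labelings of the same mice.

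The alternatives were DESeq2 1.42.0, RLE scaling, other filters, only the groups compared, a robust fit, mitochondrial genes left out, replicate number as a block, log2 CPM, and each mouse left out. A GC content offset was chosen after seeing the data. The scripts were tested on simulated data.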

Additional observations from a re-analysis of the deposited data

Results flagged for a closer look

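For each of the 7 genes in each of the 4 groups, the gap between the highest or lowest mouse and its nearest neighbor was set against the range of the group. Of 28 such groups 4 had a mouse that stood apart, where chance alone gives about 1 in 20, or 1.4. In AAV9-Cardinal TAC hearts, replicate 1 stood apart for *Fn1*, at 56.6 CPM with the other mice between 38.8 and 41.5 CPM, and for *Postn*, at 115 CPM with the others between 38.2 and 51.2 CPM. *Vcan* was at 32.2 CPM in replicate 5 of the same group, with the others between 23.1 and 23.7 CPM. In AAV9-Cardinal sham hearts *Vcan* was at 10.9 CPM in replicate 3, with the others between 8.49 and 8.83 CPM. The causes were not tested.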

How the results depend on the processing

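The 6 calls with TAC in AAV9-GFP hearts and the 0 calls between viruses in sham hearts were kept under all alternatives run. The 4 calls with TAC in AAV9-Cardinal hearts dropped to 1 (*Vcan*) with the replicate block and were otherwise kept. Between the viruses in TAC hearts the count went from 0 to 4 with DESeq2, and to 1 (*Postn*) with the filter of at least 1 CPM in 4 mice, without mitochondrial genes and with the GC offset. Over the fits that left out single mice it ranged from 0 to 3, with 3 without AAV9-Cardinal TAC replicate 1 and 1 (*Postn*) without AAV9-GFP TAC replicate 1 or replicate 4. The difference between TAC responses went from 0 to 1 (*Postn*) with DESeq2, and from 0 to 1 over the mice left out. With all mice kept, 6.77% of all tested genes did not overlap between the viruses in TAC hearts and 2.36% in sham hearts. The count of members without overlap between the viruses went from 3 to between 3 and 5 in TAC hearts and from 0 to between 0 and 1 in sham hearts. Apart from the smaller number of mice, the cause was not tested. The deviations of mice with the same number had correlations from -0.040 to 0.21. In each comparison number 1 had the highest, from 0.10 to 0.21. Each comparison had 2 to 4 shared numbers, too few to tell whether the numbers pair the mice.

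In sham hearts the *Fn1* difference between viruses of -4.2e-04 turned to 0.0015 with the 1 CPM filter, 4.1e-05 without mitochondrial genes and 7.2e-04 with the GC offset, and ranged from -0.058 to 0.068 over the mice left out. The ranges also crossed 0 in sham hearts for *Postn* (-0.0038 to 0.11), *Sparc* (-0.14 to 0.044), *Vcan* (-0.068 to 0.060) and *Smoc2* (-0.074 to 0.032), and for *Smoc2* with TAC in AAV9-Cardinal hearts (-0.0077 to 0.10). With 4 mice a group, a common coefficient of variation of 0.128 and 4 to 22 counts of *Spp1* in a mouse and 13 to 27 of *Tnc* in a sham mouse, changes of those genes were poorly resolved.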
